A study of Mus musculus with 2 samples.

Results

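The Cyp2b subfamily was examined as the 3 genes Cyp2b9, Cyp2b10 and Cyp2b13, out of 12393 genes that a probe set of the array named alone. The members were selected on their names and on their log2 ratios between these same arrays, which were already known, so their own difference between the diets is a description and carries no test. They were read by 5 of the 22690 probe sets, 1 for Cyp2b9, 1 for Cyp2b13 and 3 for Cyp2b10. All 3 genes counted among the 5911 measured genes, and each did so only through its signal on the maslinic acid array.

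Liver RNA was hybridised as biotin-labelled cRNA to 1-colour Affymetrix arrays. Each diet has a single array, and no value below could be checked against a replicate. The array labelled maslinic acid olive oil came from mice fed for 4 weeks on chow with 10% (w/w) olive oil containing added maslinic acid, a triterpene found in olives. The array labelled olive oil came from mice fed for 4 weeks on the same chow with 10% (w/w) olive oil. The mice of both diets were female homozygous apoE KO animals with a C57BL/6J background and an age of 2 months, 12 in all and 6 per diet. The sources used here do not say whether the RNA of an array came from 1 mouse or from several.

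The label of the targeted gene did not hold equally on both arrays. Apoe, which encodes the ligand that clears lipoprotein remnants, read 7630 on the maslinic acid array against 407.7 on the olive oil array. Where its probes lie relative to the disrupted part of the gene was not examined. Both arrays carry the same apoE KO label, and whether their mice differed in genotype was not tested. The part of such a difference in the Cyp2b values was not tested either. With a single array per diet, a difference between the mice cannot be told apart from the diet. Every direction below is therefore between the arrays as labelled, and is not assigned to the diet. The female label went with the data on both arrays: the 6 probe sets of Eif2s3y, Kdm5d and Uty, genes of the Y chromosome, read at most 9.2, while the brighter probe sets of Xist, the RNA that silences an X chromosome in female cells, read 2136 and 2486 on the maslinic acid array against 2867 and 2252 on the olive oil array. Liver identity was clear, with 14 of 14 hepatocyte markers on the arrays measured. Actb, the beta-actin gene, read 6531 on the maslinic acid array against 7595 on the olive oil array, and Gapdh was named by control probe sets alone, which were left out.

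Cyp2b enzymes are haem-containing monooxygenases of the hepatocyte endoplasmic reticulum that oxidise drugs, steroids and fatty acids. Cyp2b10 is the member classically induced by phenobarbital and phenobarbital-like compounds, through the nuclear receptor CAR (gene Nr1i3) with a contribution from the related receptor PXR (gene Nr1i2). Cyp2b9 and Cyp2b13 are known as female-biased genes of the mouse liver, under the control of the sex-dependent pattern of growth hormone release. The genes lie in 1 cluster on mouse chromosome 7, in which Cyp2b10, Cyp2b13 and Cyp2b9 follow each other in this order, with 3 Cyp2b pseudogenes between Cyp2b10 and Cyp2b19, another member of the subfamily.

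All 3 genes had signals above the floor set for dim probe sets on the maslinic acid array and below it on the olive oil array. Signals are given as deposited, in the linear units of the MAS5 algorithm, which brings every array to the same average brightness. A signal under 40.02 was set to this floor before ratios were taken. Of all probe sets, 48.2% on the maslinic acid array and 48.4% on the olive oil array lay below it. Their order there was taken as not meaningful, which was not tested. A gene counted as measured where its brightest probe set reached 80.04 on at least 1 array. Since the olive oil signal of each member lay under the floor, each ratio below is a lower bound, and a log2 ratio is of the maslinic acid array over the olive oil array after the floor. In a whole-liver RNA sample, more cells expressing a gene and more RNA per cell cannot be told apart.

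Cyp2b9, a female-biased steroid-metabolising member, read 660.4 on the maslinic acid array against 18.7 on the olive oil array with its 1 probe set. The difference was at least 16.5-fold, a log2 ratio of 4.04. Its log2 ratio ranked at place 2 of 5911 measured genes, after that of Apoe. The signal was above the floor on the maslinic acid array and below it on the olive oil array. Its rank, like those below, rests on a bound.

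Cyp2b13, the other female-biased member, read 252.2 on the maslinic acid array against 1.9 on the olive oil array, again with 1 probe set. It was at least 6.30-fold higher, a log2 ratio of 2.66, at place 4 of the measured genes. Its olive oil signal, like those of the other members, lay under the floor.

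Cyp2b10, the phenobarbital-inducible member, was the only one with repeat measurements, in the form of 3 probe sets that share the hybridisation. The probe set used for the gene read 117.1 on the maslinic acid array against 21.4 on the olive oil array, at least 2.93-fold higher with a log2 ratio of 1.55. A further probe set read 119.2 against 17.4, at least 2.98-fold higher. The third, which like the first was designed on the sequence AF128849, read 88.3 against 22.4, at least 2.21-fold higher. All 3 olive oil signals were set to the same floor, so the 3 bounds, from 1.14 to 1.57 on the log2 scale, differ only through the maslinic acid signals. They are repeats within 2 hybridisations and not between mice. Cyp2b10 lay closest to the floor, and with a floor of 80.04 in place of 40.02 it was at least 1.46-fold higher, short of 2-fold. With a minimum signal of 160 it was not measured.

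**Figure D1:**
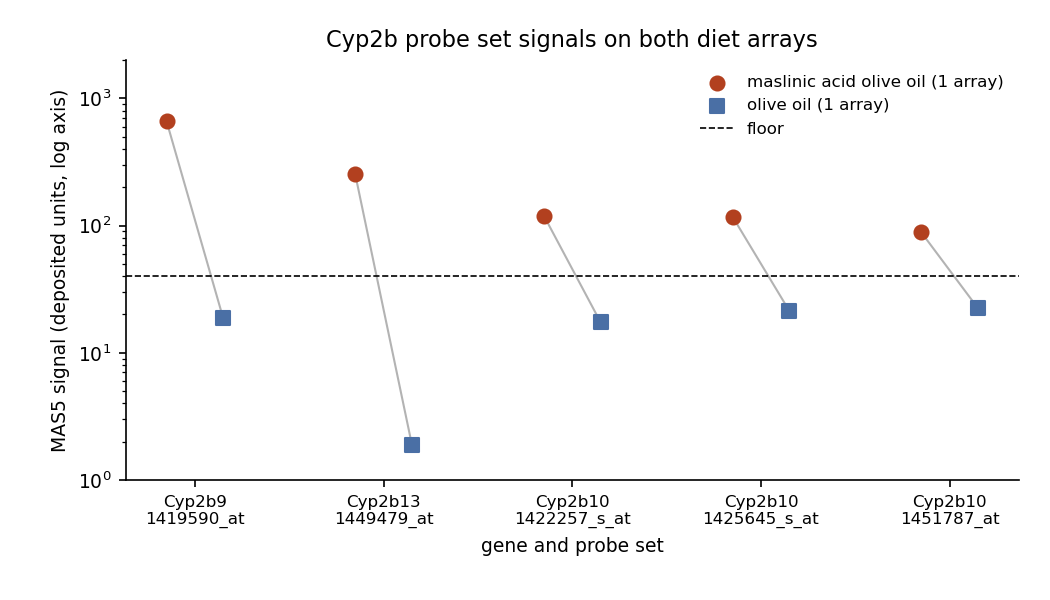
MAS5 signal (deposited units, log axis) of the 5 Cyp2b probe sets on the maslinic acid array (circles) and the olive oil array (squares), 1 array each, with the floor as a dashed line. All 5 circles lie above the floor, from 88.3 to 660.4, and all 5 squares lie below it, from 1.9 to 22.4.

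The 3 genes are close relatives, and the arrays may not separate them fully. Both brighter probe sets of Cyp2b10 carry the suffix _s_at, which marks probes that can read several transcripts, while those of Cyp2b9 and Cyp2b13 do not. Whether transcripts of 1 member add to the signal of another was not tested, since probe sequences were not used here. The relation between the genes is visible at their starts. Their promoters are shown because all 3 genes were high on the same array. Each window runs from 250 bases before to 50 bases after the annotated transcript start, on the + strand of GRCm38.p6, from RefSeq, which held a promoter for 3 of the 3 members. The windows are chr7:26173159-26173458 for Cyp2b9, chr7:26061245-26061544 for Cyp2b13 and chr7:25897408-25897707 for Cyp2b10. Capitals mark 2 motifs, the nuclear receptor half-site AGGTCA and the C/EBP and PAR bZIP core TTGCNNAA, in which N stands for any base.
Cyp2b9: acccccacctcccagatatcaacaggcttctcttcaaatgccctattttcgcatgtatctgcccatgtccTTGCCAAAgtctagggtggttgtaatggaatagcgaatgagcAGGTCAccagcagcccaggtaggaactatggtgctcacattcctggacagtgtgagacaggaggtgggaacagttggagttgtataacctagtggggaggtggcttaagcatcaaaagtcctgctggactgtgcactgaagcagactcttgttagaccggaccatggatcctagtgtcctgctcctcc
Cyp2b13: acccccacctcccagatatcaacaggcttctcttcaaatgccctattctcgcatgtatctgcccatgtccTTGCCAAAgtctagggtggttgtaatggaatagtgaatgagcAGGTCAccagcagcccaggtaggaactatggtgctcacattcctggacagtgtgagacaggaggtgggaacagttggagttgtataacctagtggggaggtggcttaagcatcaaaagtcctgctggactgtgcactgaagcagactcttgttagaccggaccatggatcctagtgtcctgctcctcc
Cyp2b10: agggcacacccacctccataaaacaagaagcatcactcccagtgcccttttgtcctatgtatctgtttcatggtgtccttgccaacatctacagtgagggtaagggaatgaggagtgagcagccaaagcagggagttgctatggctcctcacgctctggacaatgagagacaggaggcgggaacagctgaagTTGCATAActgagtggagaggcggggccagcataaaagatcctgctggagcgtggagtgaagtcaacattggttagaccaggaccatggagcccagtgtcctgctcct

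The windows of Cyp2b9 and Cyp2b13 were identical at 298 of 300 bases. Counted from 1 at the 5′ end of the window, with the Cyp2b13 base first and the Cyp2b9 base last, the differences were C48T and T104C. After global alignment the window of Cyp2b9 was identical to that of Cyp2b10 at 223 of 289 aligned bases, 77.2%, and that of Cyp2b13 gave the same figure. For comparison, Cyp2b9 was 78.7% identical to Cyp2b23 and 76.4% identical to Cyp2b19, members of the same cluster. These shares leave out bases set against a gap, 22 for Cyp2b10, 66 for Cyp2b23 and 48 for Cyp2b19.

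The motifs, chosen after the sequences were seen, were searched on both strands and fell in different places in the 2 promoter types. The half-site AGGTCA, which CAR, PXR and other nuclear receptors bind in pairs, began 138 bases before the start in both Cyp2b9 and Cyp2b13. It was not matched in the Cyp2b10 window, and it was matched in those of Cyp2b23 and Cyp2b19. Among all 32851 promoter windows of the table, 16.3% held it. The core TTGCNNAA, bound by C/EBP and PAR bZIP factors of the liver, was matched in all 5 Cyp2b windows. It read TTGCCAAA 180 bases before the start in Cyp2b9 and Cyp2b13, and TTGCATAA 58 bases before the start in Cyp2b10. TTGCATAA was also matched 85 bases before the start in Cyp2b23 and 40 bases before it in Cyp2b19. The core TTGCNNAA stood in 10.8% of all windows. The STAT site TTCNNNGAA (8.3% of all windows) and the TATA box TATAAA (13.6%) were matched in none of the 5 Cyp2b windows, and the CCAAT box CCAAT (37.4%) was matched in those of Cyp2b10 and Cyp2b23. The searched motifs do not overlap each other in these windows. The phenobarbital-responsive enhancer of Cyp2b10 is known to lie further upstream than this window reaches. A match or its absence in these windows describes the letters alone.

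**Figure D2:**
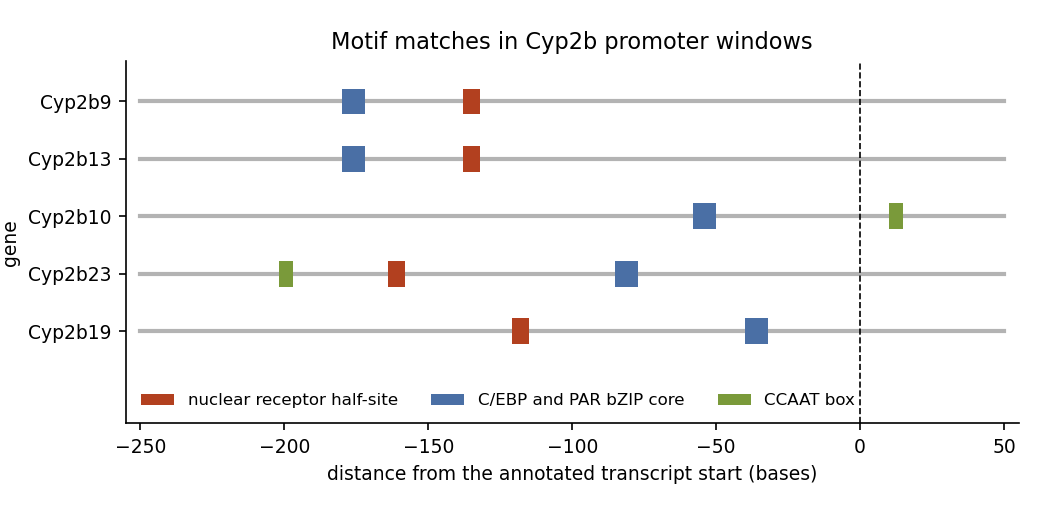
Position of motif matches (coloured boxes) in the promoter windows of 5 Cyp2b genes, as distance in bases from the annotated transcript start (dashed line). Cyp2b9 and Cyp2b13 carry the same matches at the same places, 180 and 138 bases before the start, while Cyp2b10 has its C/EBP and PAR bZIP core 58 bases before the start.

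Among all measured genes few differed as far as the Cyp2b genes. At least 2-fold higher on the maslinic acid array were 18 of 5911 measured genes, a background of 0.305%, and 3 of these 18 were the members. An equal number, also 0.305%, was at least 2-fold lower. At 1.5-fold, 1.47% of the measured genes were higher and 1.57% were lower. In the range of brighter signals from 80 to 160, where Cyp2b10 lay, 0.344% of measured genes were at least 2-fold higher. From 160 to 320, the range of Cyp2b13, it was 0.311%, and from 640 to 1280, the range of Cyp2b9, it was 0.765%. Because the members were chosen with these ratios known, the shares describe the arrays and are not support for the members.

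**Figure D3:**
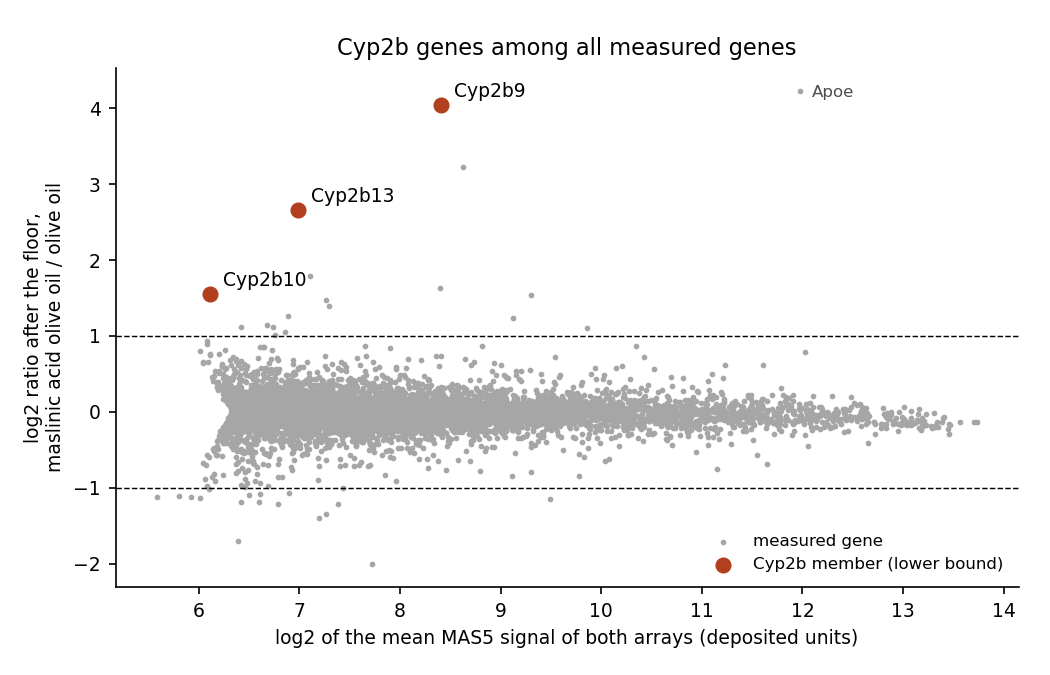
Log2 ratio after the floor (maslinic acid olive oil over olive oil, 1 array each) against the log2 of the mean deposited MAS5 signal for each of 5911 measured genes (grey points), with the 3 Cyp2b genes in red and 2-fold as dashed lines. Cyp2b9, Cyp2b13 and Cyp2b10 lie at 4.04, 2.66 and 1.55, above nearly all other genes.

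The pattern of a gene under the floor on the olive oil array and measured on the maslinic acid array was held by 3 of 5911 genes, 0.0508%, and these were the 3 members. No other measured gene was therefore named as most alike, the measure being an olive oil signal under the floor and the size of the log2 ratio over the 2 arrays. The opposite pattern, under the floor on the maslinic acid array, was held by 4 genes, 0.0677%. Among single probe sets, 9 of the 8524 that named 1 gene and reached the minimum had an olive oil signal under the floor, 0.106%, and 5 of the 9 belonged to the Cyp2b genes. The other 4, looked up after the values were seen, belonged to Dbp, Deptor, Hadh and Cfap298. For Hadh, which encodes an enzyme of fatty acid oxidation, this probe set read 165.0 on the maslinic acid array against 7.4 on the olive oil array. Its brightest probe set read 6142 against 6496. A single probe set can thus differ where the other probe sets of its gene do not, and Cyp2b9 and Cyp2b13 rest on 1 probe set each.

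Neighbours of the members in the cluster were read as follows. Cyp2b19, which encodes an epoxygenase of skin keratinocytes, read 6.4 on the maslinic acid array against 3.6 on the olive oil array, under the floor on both. Cyp2a12, a liver steroid hydroxylase in the same cluster, read 4273 against 4361, a log2 ratio of -0.03. A probe set that names both Cyp2a5 and Cyp2a4 read 5000.2 against 5096, a log2 ratio of -0.03. In a stretch of the gene order reaching from 8 genes before Cyp2b10 to 8 genes after Cyp2b19, 6 of 35 genes other than the members had a probe set naming them alone and 3 were measured. Their log2 ratios lay between -0.09 and -0.02.

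Of 28 further Cyp2 genes on the arrays, 18 were measured and 0 were 1.5-fold higher or lower, near the background of 1.47% higher and 1.57% lower over all measured genes. Their log2 ratios had a median of -0.02 and ran from -0.29 to 0.45, against a median of -0.01 over all measured genes. The lowest was Cyp2e1, the ethanol-oxidising enzyme, at 10158 on the maslinic acid array against 12414 on the olive oil array. The highest was Cyp2j6, at 107.5 against 78.8. The 8 measured Cyp2c genes, which oxidise many drugs and fatty acids, lay between -0.17 and 0.08. In the Cyp3a subfamily, 5 genes were measured. Cyp3a16, a female-biased member, read 226.0 on the maslinic acid array against 81.6 on the olive oil array, 2.77-fold higher, and the remaining Cyp3a genes lay between -0.22 (Cyp3a11) and 0.36 (Cyp3a13).

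**Figure D4:**
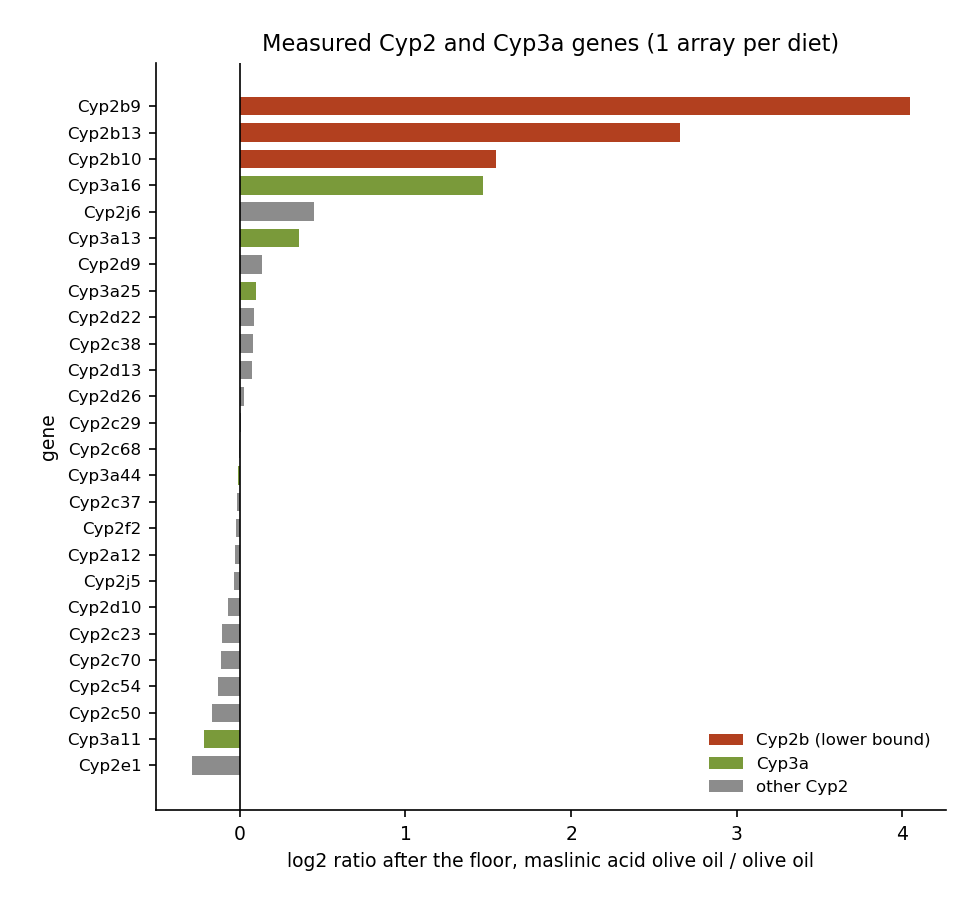
Log2 ratio after the floor (maslinic acid olive oil over olive oil, 1 array each) of each measured Cyp2 and Cyp3a gene, as bars from 0. The 3 Cyp2b genes (red, lower bounds) run from 1.55 to 4.04, Cyp3a16 reaches 1.47, and every other bar lies between -0.29 and 0.45.

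The receptor gene Nr1i3, which encodes CAR, read 585.9 on the maslinic acid array against 567.9 on the olive oil array, a log2 ratio of 0.04. Nr1i2, which encodes PXR, read 102.1 against 102.8 on its brightest probe set and 86.4 against 61.0 on the other, log2 ratios of -0.01 and 0.50. Rxra, the partner of both receptors, lay at 0.09 on its brightest probe set and at -0.32 on the other measured one. These receptors are named for their role and not for their values. Of 15 measured CAR and PXR regulators, 0 were 1.5-fold apart and the median log2 ratio was -0.10. Over all measured genes 96.95% lay within 1.5-fold and the median was -0.01, so this count is near the background. The widest were Dnajc7, a co-chaperone that retains CAR in the cytoplasm, at -0.57, Rxrb, another partner receptor, at -0.56, Hsp90aa1, a chaperone of the same complex, at 0.32, and the coactivator gene Ppargc1a at -0.28. Averaged over every measured probe set, Hsp90aa1 turned to -0.07 and Ppargc1a to 0.09. Signals of receptor RNA say nothing of receptor activity.

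Of 22 measured other targets of CAR and PXR 0 were 1.5-fold higher and 1 was lower, against 1.47% and 1.57% of all measured genes, with a median log2 ratio of -0.02. These counts are near the background. That 1 was Gadd45b, a stress-responsive gene, which read 59.0 on the maslinic acid array against 117.0 on the olive oil array, a log2 ratio of -0.99 and of -0.55 with a floor of 80.04. The following targets were named after their values were seen. Cyp2c29, the drug-metabolising enzyme induced along with Cyp2b10 by phenobarbital, read 8002 against 7972, a log2 ratio of 0.01. Cyp2c37 lay at -0.02 and Cyp3a11, the classical PXR target, at -0.22. The aldehyde dehydrogenase genes Aldh1a1 and Aldh1a7 lay at 0.05 and 0.17, the epoxide hydrolase gene Ephx1 at -0.02 and the glutathione transferase genes Gstm2 and Gsta2 at 0.48 and -0.55. Cyp1a2, which oxidises caffeine and aromatic amines, lay at -0.45.

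The genes of electron transfer to P450 enzymes, taken in 1 list with those of haem synthesis and breakdown, showed no common direction. Of 15 measured members, 1 was 1.5-fold higher and 1 was lower, against 1.47% and 1.57% of all measured genes, and the median log2 ratio was -0.03. The members outside haem synthesis and breakdown were Cyb5a, Cyb5b, Cyb5r3 and Pgrmc1, between -0.10 and 0.16. Por, the P450 reductase gene, was not among the 15, so the list does not describe it. Hmox1, the inducible haem-degrading oxygenase, read 37.2 on the maslinic acid array against 129.9 on the olive oil array, at least 3.25-fold lower. Cpox, an enzyme of haem synthesis, read 497.3 against 306.1, a log2 ratio of 0.70. Its second probe set read 292.5 against 356.2, a log2 ratio of -0.28. Alas1, the first enzyme of haem synthesis and itself a CAR target, lay at 0.13.

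Among PAR bZIP and clock factors, Dbp stood out. Dbp, Tef and Hlf are PAR bZIP factors known in the mouse to drive the daily rhythm of CAR and of detoxifying enzymes including Cyp2b10. Dbp read 214.0 on the maslinic acid array against 61.7 on the olive oil array, 3.47-fold higher, and its other probe set read 100.2 against 22.7, at least 2.50-fold higher. Tef lay at 0.23 and Hlf at -0.24. Of 11 measured members of this list 3 were 1.5-fold higher and 0 lower, against 1.47% and 1.57% of all measured genes, with a median log2 ratio of 0.23 that turned to -0.10 where the mean signal of both arrays had to reach the minimum. Beside Dbp these were Cry2 at 0.93 and Nr1d1 at 0.60, both repressors of the clock. Above 0 in log2 ratio were 6 of the 11, and 5 were below it. Short of 1.5-fold were Cry1 at 0.54 and, in the other direction, Per1 at -0.57 and Arntl at -0.33. Raising the floor to 80.04 gave 0.14 for Cry2 and 0.18 for Nr1d1, short of 1.5-fold. The sources used here do not give the hour at which the livers were taken, and its part in the Cyp2b values was not tested.

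Female-biased liver genes other than Cyp2b were mixed. Of 8 measured members 3 were 1.5-fold higher and 1 was lower, against 1.47% and 1.57% of all measured genes, with a median log2 ratio of 0.31. The list was drawn up with earlier results of these arrays known. Besides Cyp3a16, Cyp17a1, a steroid hydroxylase, read 926.2 on the maslinic acid array against 558.7 on the olive oil array, a log2 ratio of 0.73. Tox, a nuclear factor gene, lay at 1.11 with 1 probe set and at 0.06 with its dimmer one. Fmo2, a flavin monooxygenase, lay at -0.79. With a floor of 80.04 Tox lay at 0.55 and Fmo2 at -0.48, both short of 1.5-fold. Cyp3a44, a female-biased P450 gene of another cluster, read 414.4 against 416.8. The remaining members lay at 0.40 (Acot3), 0.23 (Sult3a1) and -0.08 (Hamp2). Of the 8 female-biased genes, 5 were above 0 in log2 ratio and 3 below. Of the male-biased genes 4 were measured, between -0.25 (C6, a complement gene) and 0.14 (Cyp2d9, a steroid hydroxylase), with Gstp1 at -0.15 and Cyp7b1 at -0.09. Of 13 measured growth hormone and STAT5 regulators 0 were 1.5-fold apart, near the background, in which 96.95% of measured genes lay within 1.5-fold. In log2 ratio 4 of the 13 were above 0 and 9 below, with a median of -0.12 against -0.01 over all measured genes. The widest in that list were Stat5a at -0.45, the repressor gene Bcl6 at -0.42, Jak2 at 0.27 and Socs2, a feedback inhibitor, at -0.27. With its dimmer probe set, which did not reach the minimum, Jak2 lay at -0.36. Cux2, a female-specific regulator of these genes, was not measured.

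**Figure D5:**
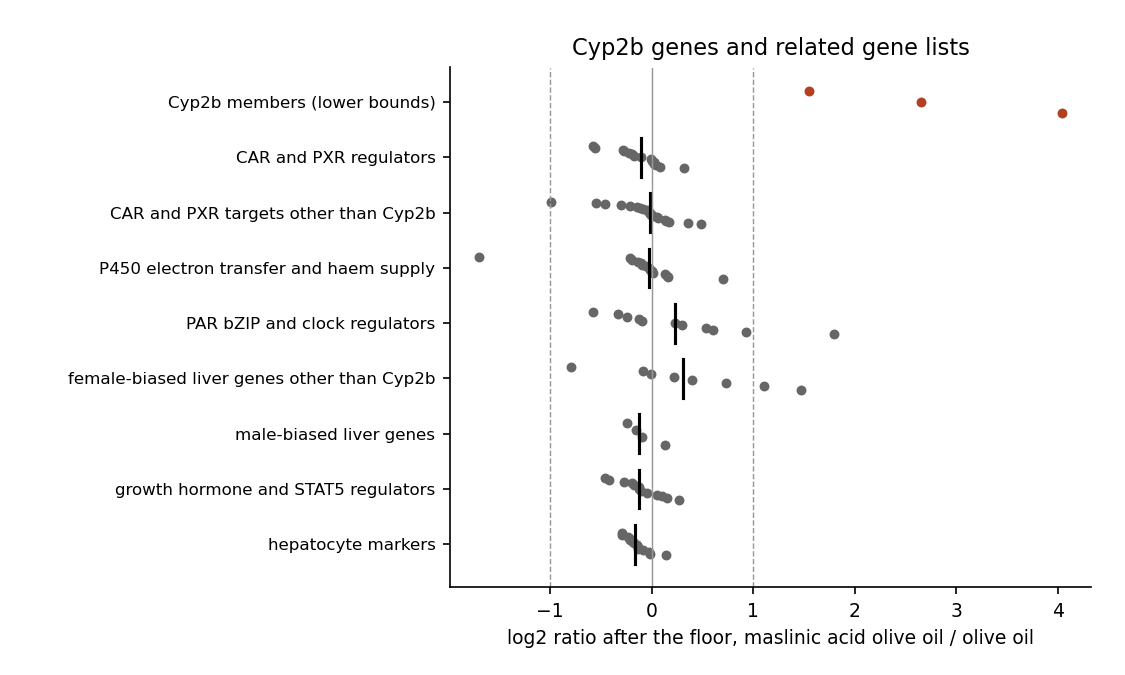
Log2 ratio after the floor (maslinic acid olive oil over olive oil, 1 array each) of each measured gene (points) in the Cyp2b subfamily and in 8 related lists, with list medians as black ticks and 2-fold as dashed lines. The 3 Cyp2b genes lie at 1.55 or above, and of the 8 lists plotted those of PAR bZIP and clock factors and of female-biased genes reach past 2-fold on the higher side.

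Markers of the cells in the sample were read on the same arrays. Of 14 measured hepatocyte markers 13 were below 0 in log2 ratio, as were 3074 of all 5911 measured genes, with a median of -0.16 (-0.05 with quantile and -0.10 with loess scaling) and a summed signal of 107574 against 119919 on the olive oil array. The 50 brightest genes of the arrays had a median of -0.14. The widest hepatocyte markers were Apob at -0.29, Cyp2e1 at -0.29, Ttr at -0.23 and Hnf4a at -0.22, which turned to 0.12 when its measured probe sets were averaged. Lymphocyte and antigen presentation markers were higher in 5 of 5 measured members, as were 2837 of all 5911 measured genes. Their median was 0.33 (0.0 with no minimum signal) and their summed signal 3905 against 2648. Of these Ighm, the heavy chain gene of IgM, was 2.90-fold higher, and 8 markers of that list were not measured, among them Cd3e and Cd79a. For macrophages and Kupffer cells the marker median was 0.05 over 14 members, with a summed signal of 14019 against 13893. Of these 14, 9 were above 0 and 5 below, and only Marco, at -2.00, was at least 1.5-fold apart. Stellate cell and matrix markers had a median of 0.14 over 10 members and a summed signal of 5569 against 5582. The widest were Acta2 at 0.35, Lum at 0.34, Vim at 0.27 and Col4a1 at -0.26. Endothelial markers were below 0 in 9 of 9 measured members, with a median of -0.12 and a summed signal of 3563 against 3888. The widest were Kdr at -0.49, Oit3 at -0.42, Cdh5 at -0.32 and Stab2 at -0.17. Nearest to 0 were Fcgr2b at -0.02 and Eng at -0.05. The dimmer probe sets of Eng and Lyve1 lay above 0, at 0.01 and 0.11, so the count of 9 rests on the probe sets used. None of the 5 cholangiocyte markers on the arrays was measured. The part of these values in the Cyp2b values was not tested.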

How the data were processed

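The authors computed the deposited values with MAS5, per the submitters' processing notes, as a linear-scale intensity for each probe set; the sources used here do not give its version or settings. The 2% trimmed mean was 200.1 on each array. Here that mean was set to 500 on both arrays, signals under 100 were set to 100, and a gene was measured where the brightest probe set naming it alone reached 200, which are 40.02 and 80.04 on the deposited scale. Of 22690 probe sets, 20393 named 1 gene, 691 several and 1606 none; 64 control probe sets entered the scaling only. With 1 array per diet there is no test, and the number of arrays limits the precision. Named genes are the 3 members with all probe sets, list members at least 1.5-fold apart or else up to 4 of the widest, other Cyp2 genes, cluster neighbours, up to 5 genes of like pattern, and checks. The members and the 14 lists were chosen with earlier results of these data known. The pipeline was tested on simulated data. The genes changed there were not chosen to lie under the floor on 1 array, as the members do. Python 3.11.15, pandas 2.3.3, scipy 1.17.1, statsmodels 0.14.6 and Biopython 1.88 were used. Alternatives covered scaling, floor, minimum signal and choice of probe sets.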

Additional observations from a re-analysis of the deposited data

How the results depend on the processing

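No paired analysis was possible because there is a single array for each diet, and none can be left out. A change smaller than the SD of 0.23 between probe sets of 1 gene was counted as no move. The Cyp2b ratios are bounds set by the floor, and moved with it by construction. With a floor of 50 after scaling the log2 ratios of Cyp2b9, Cyp2b10 and Cyp2b13 were 5.04, 2.45 and 3.66, with a floor of 200 they were 3.04, 0.55 and 1.66, and with no floor but 16 added to each signal they were 4.73, 2.15 and 4.96. The order of Cyp2b9 and Cyp2b13 thus turned without a floor. Cyp2b10 was 1.14 when _x_at and _s_at probe sets were dropped, and was not measured with a minimum of 400 or where the mean signal of the arrays had to reach 200. The remaining 24 of 34 values of the members, among them those under deposited, equal-median, quantile and loess scaling, moved less. The number of genes at least 2-fold lower was 7 in place of 18 with a floor of 200 and also with a minimum of 400; under each of these 12 were higher. Of 156 list medians 154 moved less than the SD. The median of PAR bZIP and clock regulators was -0.10 where the mean signal had to reach 200, and that of lymphocyte markers was 0.0 with no minimum. Most list medians were smaller than this SD in size, so they could change sign without being counted as moved. The count of 154 therefore does not show that their directions hold. The median of CAR and PXR targets turned to 0.02 with quantile and 0.03 with loess scaling. Of 36 other named genes, Hnf4a (0.12 and 0.64), Hsp90aa1 (-0.07) and Ppargc1a (0.09) changed sign with other probe sets.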

Other observations

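Within the cluster, the window of Cyp2b10 was identical to that of Cyp2b23 at 85.1% of 261 aligned bases. To those of Cyp2b9 and Cyp2b13 it was identical at 77.2% of 289. These shares leave out bases set against a gap, 78 for Cyp2b23 and 22 for each of Cyp2b9 and Cyp2b13. The identical bases numbered 222 for Cyp2b23 and 223 for each of Cyp2b9 and Cyp2b13, so the windows are not ranked by likeness. Cyp2b23 has no probe set naming it alone, so its RNA was not read here. The window of Cyp2b10 was identical to that of Cyp2b19 at 79.8% of 277 aligned bases, with 46 against a gap. The probe set of Cyp2b19 stayed under the floor on both arrays.

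The 4 genes under the floor on the maslinic acid array and measured on the olive oil array were Hmox1, Lce1h, Sesn2 and Apbb3. Apart from Hmox1 their signals were 8.6 on the maslinic acid array against 87.0 on the olive oil array for Lce1h, 34.3 against 86.9 for Sesn2 and 25.2 against 86.5 for Apbb3, each at least 2.16-fold lower.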
